A study of Mus musculus with 9 samples.

Results

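Tymp, the thymidine phosphorylase gene, was examined in the livers of male mouse offspring together with 8 further genes of nucleoside breakdown, Upp1, Upp2, Dpyd, Dpys, Upb1, Cda, Xdh and Uox. The 9 genes were matched by symbol to the Ensembl identifiers of a table of 55335 genes. Of these 9, 8 passed the filter of a mean of at least 1 FPKM (fragments divided by exonic length and by library size) that left 6755 genes for testing, and Upp1 did not. Tymp was picked because its values in this same table were far lower in one group, so its levels are described here without a test. The other 8 genes were picked for their place in nucleoside breakdown, with earlier results of these data known.

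The offspring came from B6D2F1/J females and males and carry the strain label B6D2F2. The NC-chow group was conceived and carried naturally. In the IVF-chow group, oocytes of superovulated females were fertilized in vitro and the fresh 2-cell embryos were moved into pseudopregnant ICR females, and in the FET-chow group the 2-cell embryos of the same procedure were slow-frozen and thawed before the transfer. IVF-chow and FET-chow mice thus share superovulation, embryo culture and an ICR recipient, and their part cannot be told apart from each other in a comparison with NC-chow. All 9 mice (3 a group) were fed chow, and their livers were taken at 20 weeks of age after a fast of 4 h. The labels number the mice 1, 5 and 6 in NC-chow and 2, 3 and 4 in both other groups, and do not say which were littermates. The p-values below therefore measure the spread between these mice.

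Nucleosides from RNA and DNA are either salvaged back into nucleotides or broken down, and the liver is a main site of the breakdown. In the pyrimidine branch, cytidine deaminase (Cda) turns cytidine into uridine, the phosphorylases Tymp, Upp1 and Upp2 split thymidine, deoxyuridine or uridine into a free base and a sugar phosphate, and Dpyd, Dpys and Upb1 then reduce, open and cleave uracil and thymine to beta-amino acids. In the purine branch, xanthine dehydrogenase (Xdh) makes urate, and urate oxidase (Uox), which mice keep and humans have lost, takes it on towards allantoin.

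The libraries differed in depth and makeup. The depth of the FET-chow libraries was set apart from the others, while NC-chow and IVF-chow depths overlapped. The number of mapped fragments, read from the spacing of low FPKM values, to which 1 fragment adds a fixed amount, was 6600000 to 13340000 in NC-chow, 3890000 to 8420000 in IVF-chow and 2020000 to 2930000 in FET-chow mice, so the FET-chow libraries were the smallest. Nuclear protein-coding genes held from 4.36% (IVF-chow mouse 2) to 29.3% (IVF-chow mouse 4) of the summed FPKM, and 3 ribosomal RNA-like entries held from 3.49% (NC-chow mouse 5) to 61.9% (IVF-chow mouse 2). FPKM values of a gene therefore move with the makeup of the library. Every library was also rescaled to the summed FPKM of its nuclear protein-coding genes. For each tested gene, levels, differences or both are also given on that scale. The lists of other genes are given on the deposited scale unless rescaling is named. The median log2 difference over the 6755 genes was -0.46 for FET-chow and -0.25 for IVF-chow, each against NC-chow, and -0.20 between FET-chow and IVF-chow. After rescaling, these medians were -0.06, -0.07 and 0.02. On the deposited scale single libraries moved them, to 0.22 (IVF-chow against NC-chow) and -0.67 (FET-chow against IVF-chow) without IVF-chow mouse 2 and to -0.63 and 0.16 without IVF-chow mouse 4, while for FET-chow against NC-chow the median was -0.22 without FET-chow mouse 4 and -0.15 without NC-chow mice 5 and 6. The sample sheet numbers of NC-chow mice 5 and 6 stand apart from those of the other 7 mice. The 11 hepatocyte markers (Alb, Ttr, Apoa1 and others) were above 0 in every mouse.

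The promoters of Tymp and of the 3 genes besides Xdh whose FET-chow and NC-chow values did not overlap are shown as the sequence background to the levels below. RefSeq promoters (250 bases before to 50 bases after the start) were at hand for 7 of the 9 genes, and Xdh and Dpys had no entry. Each is printed 5′ to 3′ on the strand of its gene in GRCm38.p6, and capitals mark the letters found in a search of both strands for the TATA box TATAAA, the CCAAT box, the Sp1 site core GGGCGG, the E-box palindrome CACGTG and the PAR bZIP (D-box) element TTATGTAA.
Tymp, chr15:89376987-89377286, minus strand: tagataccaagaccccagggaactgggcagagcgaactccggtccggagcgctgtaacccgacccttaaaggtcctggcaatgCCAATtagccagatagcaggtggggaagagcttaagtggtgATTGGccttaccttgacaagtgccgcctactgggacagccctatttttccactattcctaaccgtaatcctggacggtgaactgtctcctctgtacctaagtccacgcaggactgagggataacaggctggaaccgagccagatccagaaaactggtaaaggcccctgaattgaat
Upb1, chr10:75406661-75406960, plus strand: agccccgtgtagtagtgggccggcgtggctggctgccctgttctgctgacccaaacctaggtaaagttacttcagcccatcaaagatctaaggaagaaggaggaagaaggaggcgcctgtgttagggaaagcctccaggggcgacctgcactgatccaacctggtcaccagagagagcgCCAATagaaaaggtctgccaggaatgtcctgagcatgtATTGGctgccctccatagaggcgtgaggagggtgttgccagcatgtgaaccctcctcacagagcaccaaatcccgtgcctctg
Upp2, upstream start, chr2:58567084-58567383, plus strand: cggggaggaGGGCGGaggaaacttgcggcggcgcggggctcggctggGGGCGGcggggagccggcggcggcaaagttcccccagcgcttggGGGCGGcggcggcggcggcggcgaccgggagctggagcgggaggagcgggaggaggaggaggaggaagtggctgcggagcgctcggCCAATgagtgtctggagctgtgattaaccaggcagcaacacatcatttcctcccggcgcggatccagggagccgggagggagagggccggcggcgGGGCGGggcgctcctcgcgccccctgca
Upp2, downstream start, chr2:58754934-58755233, plus strand: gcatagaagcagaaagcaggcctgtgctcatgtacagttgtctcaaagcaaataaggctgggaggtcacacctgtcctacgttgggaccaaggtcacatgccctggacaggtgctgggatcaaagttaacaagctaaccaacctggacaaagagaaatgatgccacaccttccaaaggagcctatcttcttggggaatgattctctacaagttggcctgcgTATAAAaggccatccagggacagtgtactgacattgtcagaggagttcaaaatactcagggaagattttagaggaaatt
Dpyd, chr3:118561930-118562229, plus strand: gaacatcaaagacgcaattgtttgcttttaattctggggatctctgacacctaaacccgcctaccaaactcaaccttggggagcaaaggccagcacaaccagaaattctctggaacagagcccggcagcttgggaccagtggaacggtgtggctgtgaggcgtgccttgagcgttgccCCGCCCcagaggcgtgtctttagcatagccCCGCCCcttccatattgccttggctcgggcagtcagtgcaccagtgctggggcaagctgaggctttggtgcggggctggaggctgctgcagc
The Tymp promoter held CCAAT at position -167 and its reverse complement ATTGG at -126 from the start, and the Upb1 promoter held CCAAT at -71 and ATTGG at -33. CCAAT or its complement occurs in 37.4% of 32851 promoters of this length. The upstream Upp2 start had a CCAAT and 4 GGGCGG, the downstream one a TATAAA at position -29, and the Dpyd promoter had 2 CCGCCC, the complement of GGGCGG. For comparison, GGGCGG was found in 35.7% and TATAAA in 13.6% of the promoters. Among the promoters not printed, that of Cda held CCGCCC at -181. Upp1 entries 1 and 2, whose windows overlap, held the same GGGCGG at -111 and -206 from their starts. Entry 3 of Upp1 held GGGCGG at 20, and Uox had no match. No promoter of the 7 genes held CACGTG (7.15% of all promoters) or TTATGTAA (0.938%). These matches describe letters in a window and were not tested for function.

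Tymp (ENSMUSG00000022615) splits thymidine into thymine and deoxyribose phosphate, and lies on chromosome 15 from 89371931 to 89377039 on the minus strand. It had 5.34, 24.6 and 42.7 FPKM in NC-chow mice 1, 5 and 6, and 0.306, 4.14 and 0.975 FPKM in IVF-chow mice 2, 3 and 4, and it was listed at 0 in FET-chow mice 2, 3 and 4. The 3 groups did not overlap, with every IVF-chow mouse below every NC-chow mouse and above the FET-chow mice. The mean was 24.2 ± 18.7 (SD, n = 3) FPKM in NC-chow and 1.81 ± 2.05 (SD, n = 3) in IVF-chow mice, so the mice within a group differed about as much as the size of its mean. On the log2(FPKM + 1) scale, which understates changes of low genes, the difference was -4.26 (SE 0.683) for FET-chow and -3.02 for IVF-chow, each against NC-chow, and -1.24 between FET-chow and IVF-chow. With a pseudocount of 0.1 in place of 1, the first was -7.49 and the last -3.62, since 1 group is listed at 0. Without NC-chow mice 5 and 6, which leaves mouse 1 as the only control, the difference from NC-chow was -2.66 for FET-chow and -1.42 for IVF-chow. Rescaled to nuclear protein-coding genes, Tymp was at 6.53, 20.5 and 31.3 in NC-chow and at 0.896, 4.34 and 0.486 in IVF-chow mice, again without overlap.

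The value of 0 was read against the depth of the libraries. The estimated fragments behind Tymp were 71.8, 599 and 1160 in the NC-chow and 5.24, 37.8 and 7.73 in the IVF-chow mice. In FET-chow mice 2, 3 and 4, 3 fragments would have come to 0.729, 0.526 and 0.503 FPKM. The lowest NC-chow value lay above these levels, as did those of IVF-chow mice 3 and 4, whereas the 0.306 FPKM of IVF-chow mouse 2 lay below them. The table also lists values of about 1 fragment, such as Upp1 in IVF-chow mouse 3 (0.115 FPKM, an estimated 1.02 fragments), so 3 fragments is a cautious level and not a floor of the table. Rescaled, 3 fragments came to 0.917, 0.467 and 1.27 in FET-chow mice 2, 3 and 4, below which lie the rescaled IVF-chow mice 2 (0.896) and 4 (0.486) in 2 of these 3 libraries, but no NC-chow mouse (6.53 or more). A 0 in this table can also be a failed estimate, since Hprt and Pgk1, which every cell uses, were each listed at 0 in 1 FET-chow mouse. Among the 1524 genes that reached at least the lowest NC-chow level of Tymp in every NC-chow mouse, 66 (4.33%) were at 0 in at least 1 FET-chow mouse and 4 (0.262%) in all 3. Besides Tymp, these were Tmem254b, Hectd2os and Gm27216.

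**Figure D1:**
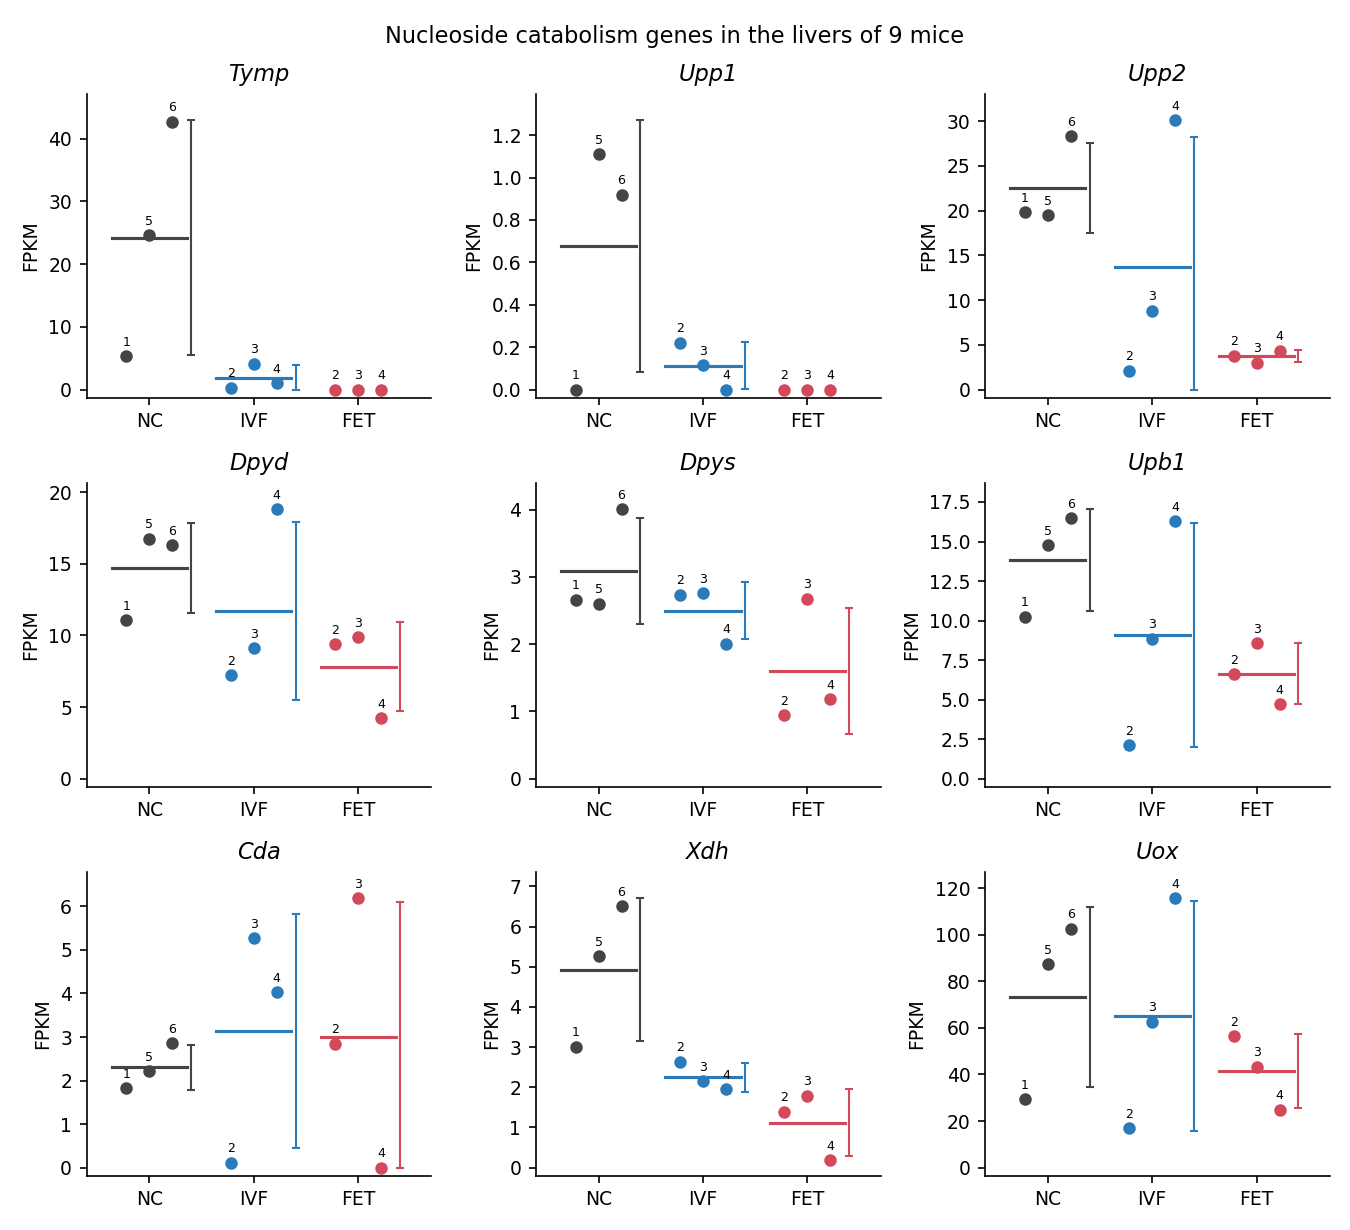
FPKM of the 9 genes in each liver, by group; points are mice with their label numbers, horizontal lines are group means and vertical bars are 1 SD (n = 3), cut at 0 where they would reach below it. Tymp is listed at 0 in the 3 FET-chow mice, Upp2 in FET-chow mice (3.00 to 4.36) lies below every NC-chow mouse, and Uox spreads from 16.9 to 115.6 within IVF-chow.

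Tymp shares exons with its neighbours, which bears on how fragments were assigned. Of its 2037 exonic bases in the GENCODE annotation, 856 (42%) are also exons of Sco2, a mitochondrial copper chaperone gene on the same strand, and 535 (26.3%) are also exons of Ncaph2, a condensin subunit gene on the opposite strand. Tymp keeps 1181 bases (58%) of its own, whereas Sco2 keeps 103 of its 1253 bases (8.22%). Sco2 had 3.56, 13.3 and 20.1 FPKM in NC-chow mice 1, 5 and 6, 2.38, 7.44 and 23.9 in IVF-chow mice 2, 3 and 4, and was listed at 0, 0 and 8.58 in FET-chow mice 2, 3 and 4. Its groups overlapped, and its difference of -2.39 in FET-chow against NC-chow did not pass the test (adjusted p = 0.242 in limma). Multiplied by exonic length, Tymp and Sco2 together came to 15.3, 66.9 and 112.1 in the NC-chow, to 3.60, 17.8 and 32.0 in the IVF-chow and to 0, 0 and 10.8 in the FET-chow mice, in units of fragments scaled to library size. Tymp took 70.9%, 75.01% and 77.6% of this sum in the NC-chow mice but 17.3%, 47.5% and 6.21% in the IVF-chow mice, and none of it in FET-chow mouse 4. The sums of NC-chow and IVF-chow mice overlapped, unlike Tymp alone, since IVF-chow mice 3 (17.8) and 4 (32.0) lay above NC-chow mouse 1 (15.3). After rescaling, the IVF-chow sums (10.6, 18.7 and 15.9) all lay below NC-chow mouse 1 (18.8), narrowly for mouse 3, while FET-chow mouse 4 (27.2) lay above it. How the reads of the shared bases were divided among these genes is not given in the sources used here, and its part in the Tymp values was not tested.

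**Figure D2:**
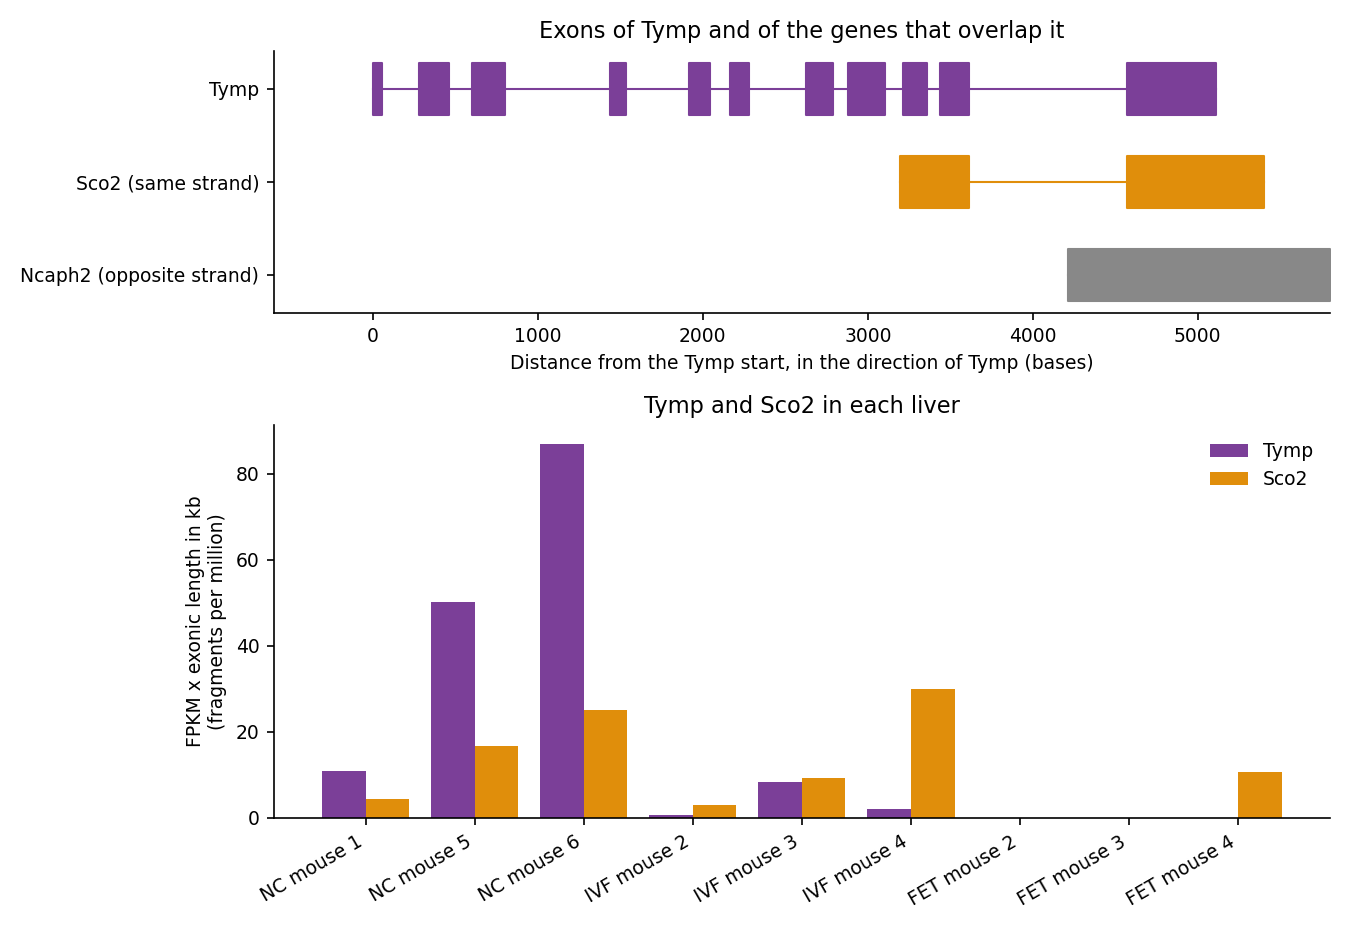
Top, exons (boxes) of Tymp, Sco2 and Ncaph2 along the direction of Tymp, in bases from the Tymp start; bottom, FPKM multiplied by exonic length in kb (fragments scaled to library size) for Tymp and Sco2 in each of the 9 mice. Tymp stands above Sco2 in the 3 NC-chow mice and below it in the 3 IVF-chow mice and in FET-chow mouse 4.

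Within 50 kb of Tymp, 4 further genes (Adm2, Miox, Klhdc7b and Syce3) were listed at 0 in all 9 mice. Odf3b, the next gene upstream, had 0, 2.35 and 2.40 FPKM in NC-chow, 0.235, 1.92 and 1.43 in IVF-chow and 0, 0.523 and 0 in FET-chow mice. Cpt1b, the muscle form of carnitine palmitoyltransferase, was above 0 only in NC-chow mice 5 and 6 (1.94 and 1.23 FPKM). Ncaph2 at 3.68 ± 3.65, 1.71 ± 1.28 and 3.44 ± 3.76 FPKM (SD, n = 3 each, in NC-chow, IVF-chow and FET-chow), Lmf2 at 2.39 ± 1.06, 2.12 ± 1.77 and 1.66 ± 1.99, Chkb, a choline kinase gene, at 13.5 ± 5.25, 7.99 ± 7.65 and 8.18 ± 5.52, and Gm44502, which overlaps Cpt1b and Chkb, at 3.20 ± 3.74, 6.24 ± 4.81 and 2.23 ± 3.86 FPKM all overlapped between the groups. None of these neighbours was listed at 0 in all 3 FET-chow mice while above 0 in every NC-chow mouse.

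Upp2 and Upp1 encode the uridine phosphorylases, of which Upp2 is the liver form. Upp2 had 19.8, 19.5 and 28.3 FPKM in NC-chow mice 1, 5 and 6, 2.12, 8.81 and 30.1 in IVF-chow mice 2, 3 and 4, against 3.79, 3.00 and 4.36 in FET-chow mice 2, 3 and 4. All FET-chow mice lay below all NC-chow mice, while the IVF-chow mice held both the lowest and the highest of the 9 values. The means were 22.5 ± 5.03, 13.7 ± 14.6 and 3.72 ± 0.681 FPKM (SD, n = 3 each), a ratio of 0.165 between FET-chow and NC-chow. The log2 difference in FET-chow against NC-chow was -2.31 (SE 0.856), which did not pass the test after adjustment over all genes (adjusted p = 0.269 in limma, 0.119 to 1 over the alternatives). It was -1.24 for IVF-chow against NC-chow and -1.07 between FET-chow and IVF-chow (adjusted p = 1 in limma for both). These last 2 values rested on single livers, at -0.41 and -1.90 without IVF-chow mouse 2 and at -2.07 and -0.24 without IVF-chow mouse 4. Rescaled, FET-chow mice 2, 3 and 4 were at 4.76, 2.67 and 11.0 and the NC-chow mice at 24.2, 16.2 and 20.8, still without overlap and with a difference of -1.74. The IVF-chow mice drew together to 6.21, 9.25 and 15.0, all below the NC-chow mice on that scale. Upp1, the form of most other tissues, was low throughout, at 0, 1.11 and 0.919 FPKM in NC-chow, 0.221, 0.115 and 0 in IVF-chow and listed at 0 in all 3 FET-chow mice, and did not reach the filter for testing.

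Dpyd, Dpys and Upb1 carry out the 3 steps that degrade uracil and thymine. Dpyd, the dehydrogenase at the first and rate-limiting step, had 11.1, 16.8 and 16.3 FPKM in NC-chow mice 1, 5 and 6, 7.22, 9.11 and 18.8 in IVF-chow mice 2, 3 and 4, against 9.38, 9.87 and 4.22 in FET-chow mice 2, 3 and 4. FET-chow mice lay below NC-chow mice, but the highest FET-chow (9.87) and the lowest NC-chow mouse (11.1) were close together, and the difference of -0.88 (SE 0.841) did not pass the test (adjusted p = 0.719 in limma). Rescaled, the gap was 11.8 against 12.0, the difference was -0.32, and 1 IVF-chow mouse (21.2) stood above all others.
Upb1, the beta-ureidopropionase of the last step, had 10.2, 14.8 and 16.5 FPKM in NC-chow mice 1, 5 and 6, 2.11, 8.86 and 16.3 in IVF-chow mice 2, 3 and 4, against 6.59, 8.57 and 4.71 in FET-chow mice 2, 3 and 4. Its FET-chow and NC-chow values did not overlap, on the rescaled scale by 11.9 against 12.1. The difference was -0.97 (SE 0.828, adjusted p = 0.683 in limma), and -0.39 after rescaling. Dpys, the dihydropyrimidinase between them, overlapped in every comparison, with means of 3.09 ± 0.793, 2.496 ± 0.427 and 1.60 ± 0.941 FPKM (SD, n = 3 each, in NC-chow, IVF-chow and FET-chow) and a difference of -0.69 (SE 0.608, adjusted p = 0.691 in limma) in FET-chow against NC-chow, which was -0.28 after rescaling. Rescaled, Dpys was at 3.26, 2.16 and 2.93 in the NC-chow and 1.18, 2.38 and 2.98 in the FET-chow mice, and still overlapped.

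Cda, which feeds cytidine into the pathway, did not keep the order of the other genes. It had 1.83, 2.21 and 2.86 FPKM in NC-chow mice 1, 5 and 6, 0.116, 5.27 and 4.03 in IVF-chow mice 2, 3 and 4, against 2.84, 6.18 and 0 in FET-chow mice 2, 3 and 4. Both transfer groups spanned the NC-chow range from below to above. The low ends were near the limit of depth, with an estimated 1.01 fragments in IVF-chow mouse 2. In FET-chow mouse 4, listed at 0, 3 fragments would have come to 0.989 FPKM. The difference in FET-chow against NC-chow was -0.12 (SE 0.688, adjusted p = 0.965 in limma), and its sign turned with rescaling (0.02), quantile normalization (0.19) or without FET-chow mouse 4 (0.68).

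In the purine branch, Xdh had 3.01, 5.27 and 6.51 FPKM in NC-chow mice 1, 5 and 6, 2.63, 2.14 and 1.95 in IVF-chow mice 2, 3 and 4, against 1.39, 1.79 and 0.189 in FET-chow mice 2, 3 and 4. Like Tymp, it stood in the order NC-chow, IVF-chow, FET-chow with no overlap between any 2 groups. The gaps were narrow, with the highest FET-chow mouse at 1.79 and the lowest IVF-chow mouse at 1.95 FPKM. The highest IVF-chow mouse was at 2.63 and the lowest NC-chow mouse at 3.01. The 0.189 FPKM of FET-chow mouse 4 rested on an estimated 5.08 fragments. The means were 4.93 ± 1.78, 2.24 ± 0.351 and 1.12 ± 0.831 FPKM (SD, n = 3 each). The differences were -1.52 (SE 0.618, adjusted p = 0.311 in limma, 0.215 to 1 over the alternatives) for FET-chow and -0.83 for IVF-chow, each against NC-chow, and -0.70 between FET-chow and IVF-chow (adjusted p = 1 for the last 2), so none passed. The place of the IVF-chow mice depended on the scale. Rescaled, IVF-chow mouse 2 moved from 2.63 to 7.72, the highest of all 9 mice, while the FET-chow mice (1.75, 1.59 and 0.478) stayed below the NC-chow mice (3.68, 4.38 and 4.77), with a difference of -1.26.

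Uox was the most abundant of the 9 genes per length in every group and had the largest SD. It had 29.4, 87.5 and 102.6 FPKM in NC-chow mice 1, 5 and 6, 16.9, 62.6 and 115.6 in IVF-chow mice 2, 3 and 4, against 56.3, 43.3 and 24.9 in FET-chow mice 2, 3 and 4. The groups overlapped, and the difference of -0.69 (SE 1.057) in FET-chow against NC-chow did not pass the test (adjusted p = 0.836 in limma). Rescaling brought the IVF-chow mice from a range of 16.9 to 115.6 to one of 49.5 to 65.8 and the difference to -0.07, and without NC-chow mice 5 and 6 the difference on the deposited scale was 0.41.

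**Figure D3:**
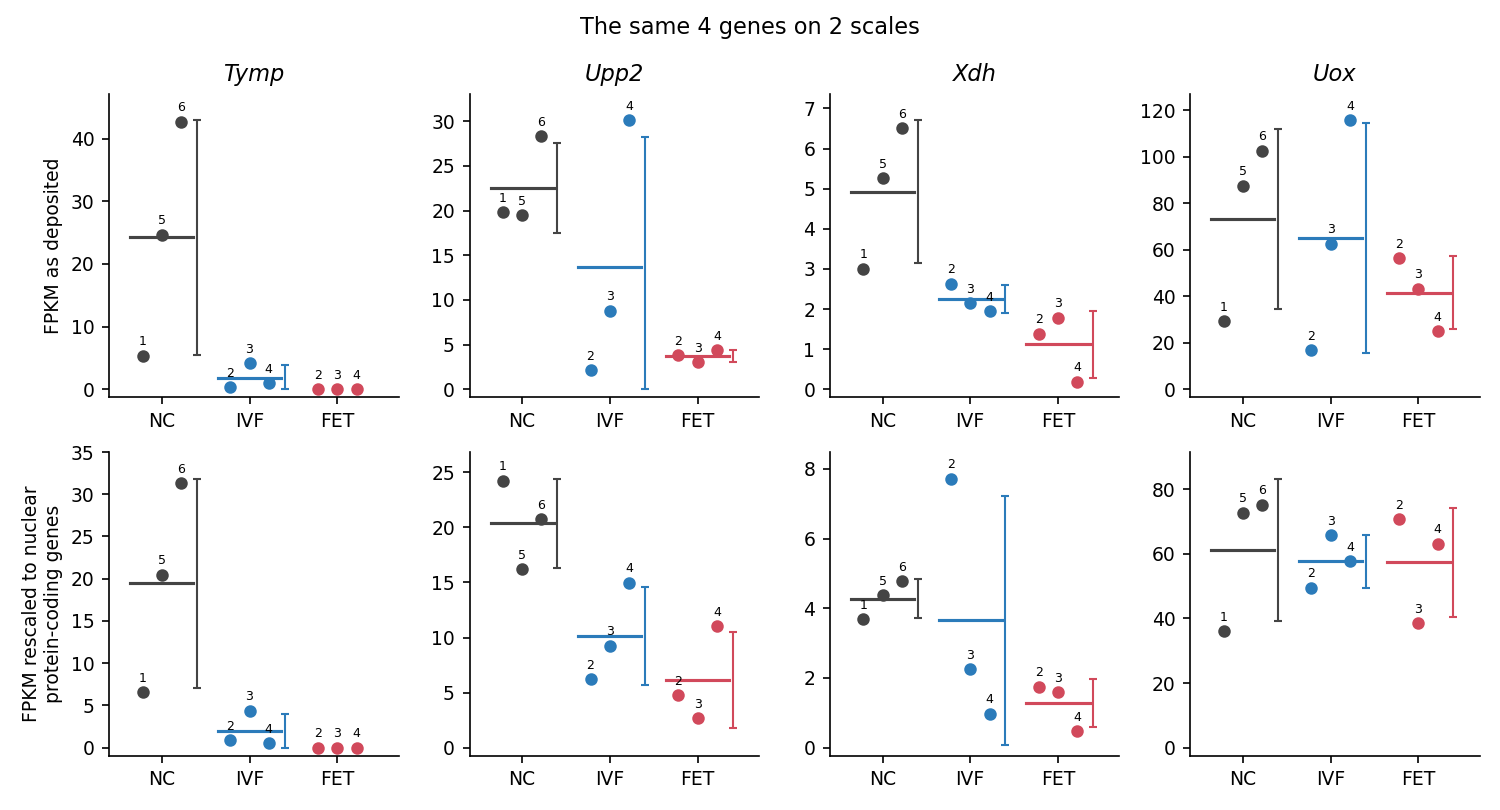
Tymp, Upp2, Xdh and Uox in each liver as deposited (top, FPKM) and after rescaling each library to its nuclear protein-coding genes (bottom); points are mice, horizontal lines group means and vertical bars 1 SD (n = 3), cut at 0. Tymp, Upp2 and Xdh keep FET-chow below NC-chow on both scales, whereas Uox overlaps on both and IVF-chow mouse 2 moves from 2.63 to 7.72 in Xdh.

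By mean level per length, the NC-chow order was Uox (73.2 ± 38.7 FPKM, SD, n = 3), Tymp (24.2 ± 18.7), Upp2 (22.5 ± 5.03), Dpyd (14.7 ± 3.16), Upb1 (13.8 ± 3.21), Xdh (4.93 ± 1.78), Dpys (3.09 ± 0.793), Cda (2.30 ± 0.521) and Upp1 (0.676 ± 0.593). The values of neighbours in this order overlapped between mice, except those of Upp2 and Dpyd, of Upb1 and Xdh, and of Cda and Upp1. In FET-chow mice the order was Uox (41.5 ± 15.8), Dpyd (7.82 ± 3.13), Upb1 (6.62 ± 1.93), Upp2 (3.72 ± 0.681), Cda (3.01 ± 3.10), Dpys (1.60 ± 0.941) and Xdh (1.12 ± 0.831), with Tymp and Upp1 listed at 0, and neighbours overlapped except Uox with Dpyd and Upb1 with Upp2. Upp2 thus stood above Dpyd and Upb1 in every NC-chow mouse and below both in FET-chow mice 2 and 3, and in FET-chow mouse 4 it lay between Dpyd (4.22) and Upb1 (4.71).

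Over the 3 comparisons, none of the 7 tested genes besides Tymp was called by limma at an adjusted p under 0.05, with 2 (Upp2 and Xdh), 0 and 0 of them at an unadjusted p under 0.05 for FET-chow against NC-chow, for IVF-chow against NC-chow and between FET-chow and IVF-chow. Among all genes tested, 0.237%, 0.0592% and 0.0888% were called in these comparisons, and 12%, 4.07% and 4.01% (812, 275 and 271 genes) had an unadjusted p under 0.05. After rescaling, 1127, 366 and 636 of the 6755 genes had such a p, and the counts of 2, 0 and 0 did not change. The count of 2 was 1 without NC-chow mouse 5, NC-chow mouse 6 or FET-chow mouse 4 or with quantile normalization, and 0 without NC-chow mice 5 and 6, where the 812 genes in all at such a p became 110 (415 without mouse 5 and 373 without mouse 6). With no filter on low values it was 3 of 8, Upp1 (-0.67, adjusted p = 0.52 in limma) being the third, beside 2618 of 27411 genes. The count for IVF-chow against NC-chow was 1 without IVF-chow mouse 4, where the 275 genes in all became 476. Between FET-chow and IVF-chow it was 1 without IVF-chow mouse 2, where the 271 genes in all became 845. The comparison with NC-chow shares its control mice between IVF-chow and FET-chow. All 7 differences were negative in FET-chow against NC-chow, as were 74.3% of all genes tested, with a median of -0.88 beside -0.46 over all genes. In IVF-chow against NC-chow 6 of 7 were negative (68.7% of all genes) with a median of -0.39 beside -0.25, and in FET-chow against IVF-chow 7 of 7 (65.4% of all genes) with a median of -0.48 beside -0.20. After rescaling, 6 of 7 differences were negative for FET-chow against NC-chow (53.5% of all genes), with a median of -0.32 beside -0.06, and 6 of 7 for IVF-chow against NC-chow (55.7%), where the median of -0.07 equalled that of all genes. Between FET-chow and IVF-chow, 5 of 7 were then negative (48.8%), with a median of -0.25 beside 0.02.

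Counted by mice, 5 of the 9 genes (Tymp, Upp2, Dpyd, Upb1 and Xdh) were lower in every FET-chow than in every NC-chow mouse, beside 17.1% of all genes tested that were lower in this way. The same 5 were found after rescaling (11.5% of all genes) and after median-ratio scaling (13.6%). Tymp was chosen from this contrast and the other genes with earlier results known, so nothing is read from the count. In IVF-chow against NC-chow, Tymp and Xdh were lower in every mouse (5.46% of all genes), and after rescaling Tymp, Upp2 and Upb1 (11.3%), or Tymp and Upb1 after median-ratio scaling (8.72%). In FET-chow against IVF-chow, Tymp and Xdh were lower in every mouse (2.56%), and Tymp alone after rescaling (6.01%) or median-ratio scaling (8.75%). The shares of all genes that were higher in every mouse were 1.98%, 0.77% and 1.27% in the 3 comparisons, and none of the 9 genes was among them. Without IVF-chow mouse 4 the count in IVF-chow against NC-chow was 5, and without IVF-chow mouse 2 or 4 the count in FET-chow against IVF-chow was 5 or 4. Groups of fewer mice overlap less easily, and the share of all genes was not worked out for these sets. Nothing is therefore read from these leave-one-out counts.

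**Figure D4:**
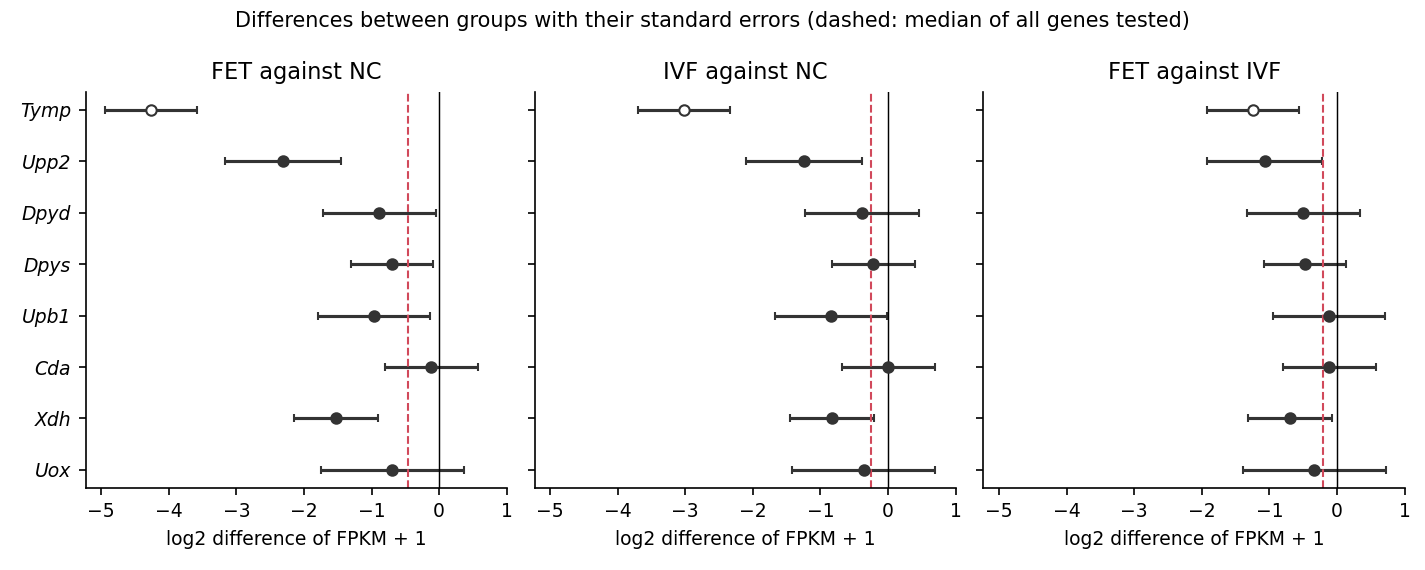
Log2 differences of FPKM + 1 for the 8 genes that passed the filter, in the 3 comparisons, with bars of 1 standard error from limma and a dashed line at the median of all 6755 genes tested (-0.46, -0.25 and -0.20); the open symbol marks Tymp, which was chosen from the first comparison. Apart from Tymp, Upp2 (-2.31) and Xdh (-1.52) lie farthest from the median in FET-chow against NC-chow.

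The other genes of nucleotide metabolism were followed in 5 lists, in none of which a gene was called in any comparison by limma. Of the pyrimidine synthesis and salvage genes, 9 of 22 were tested in FET-chow against NC-chow, all 9 differences were negative with a median of -1.12, and 2 had an unadjusted p under 0.05, beside 74.3% negative, a median of -0.46 and 12% at such a p among all genes tested, which also stand beside the counts of the other lists. These were Uck1, a uridine-cytidine kinase of salvage, with 2.34, 4.86 and 8.28 FPKM in NC-chow, 0.321, 2.65 and 6.61 in IVF-chow and 0, 0.655 and 0 in FET-chow mice (difference -2.26, adjusted p = 0.0924), and Dtymk, the thymidylate kinase (-1.58, adjusted p = 0.277). Both were lower in every FET-chow than in every NC-chow mouse, as were 17.1% of all genes tested. In this list 4 genes were lower in this way, and 5 after rescaling, beside 11.5% of all genes on that scale. The UMP-CMP kinase gene Cmpk1 had a difference of -1.38 (adjusted p = 0.473).
Of the purine synthesis and salvage genes, 16 of 24 were tested, 15 differences were negative with a median of -0.74, and 3 (Adk, Adssl1 and Prpsap1) had an unadjusted p under 0.05. The largest differences were those of the adenosine kinase gene Adk (-1.90, adjusted p = 0.414), the salvage gene Hprt (-1.55, adjusted p = 0.499) and Adssl1, an adenylosuccinate synthase (-1.44, adjusted p = 0.315). Hprt was at 12.1, 8.64 and 0 FPKM in FET-chow mice 2, 3 and 4 beside 10.04, 13.2 and 18.9 in the NC-chow mice.

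Of the other pyrimidine breakdown genes, 5 of 11 were tested and 4 differences were negative (median -0.37, none at an unadjusted p under 0.05). Agxt2, an aminotransferase that acts on beta-aminoisobutyrate, had a difference of -1.41 (adjusted p = 0.576), Abat, which acts on beta-alanine, one of -0.59 (adjusted p = 0.744), and the 5′-nucleotidase gene Nt5c one of 1.36 (adjusted p = 0.585). Nt5c was the exception in sign, at 8.51 ± 4.08 FPKM in NC-chow and 26.3 ± 18.5 in FET-chow mice (SD, n = 3 each). Of the other purine breakdown genes, 4 of 15 were tested and 3 differences were negative (median -0.71, none at an unadjusted p under 0.05). Urad, which acts after Uox on the way to allantoin, had 5.11, 4.09 and 5.98 FPKM in NC-chow and 0, 10.8 and 0 in FET-chow mice (-1.40, adjusted p = 0.478). The AMP deaminase gene Ampd2 had a difference of -1.13 (adjusted p = 0.433), with FET-chow mice at 0.660, 0.691 and 0.597 FPKM below NC-chow mice at 1.35, 3.22 and 3.77, and the purine nucleoside phosphorylase gene Pnp one of -0.28 (adjusted p = 0.893). Of the nucleoside and urate transporters, 5 of 13 were tested and 4 differences were negative (median -0.48), with 1 at an unadjusted p under 0.05, Slc17a3 (-1.51, adjusted p = 0.383). The nucleoside transporter gene Slc29a1 had a difference of -1.08 (adjusted p = 0.702) and the phosphate transporter gene Slc17a1 one of -0.49 (adjusted p = 0.787). In IVF-chow against NC-chow the list medians ran from -0.26 to -0.58, and in FET-chow against IVF-chow from -0.46 to 0.02, with 1 gene of the 5 lists at an unadjusted p under 0.05 in each.

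Across the 9 mice, the Pearson correlation of log2(FPKM + 1) with Tymp was 0.85 for Xdh, rank 157 of 5736 protein-coding genes, 0.75 for Upp2 (rank 547), 0.68 for Dpys, 0.66 for Upb1, 0.63 for Dpyd, 0.54 for Uox and 0.21 for Cda. The highest values among the 5736 protein-coding genes compared were those of Gtf3c2 (0.98), a subunit of a transcription factor of RNA polymerase III, Nek9 (0.978), Tbc1d10a (0.97), Slc38a10 (0.966) and 9430015G10Rik (0.966). These points share group, depth and library makeup, so the correlations are descriptions.

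Markers of other liver cells were read beside these values. In bulk tissue, fewer cells of a type and less RNA per cell cannot be told apart. The summed FPKM of the 11 hepatocyte markers was 10320 to 19640 in NC-chow, 3393 to 30990 in IVF-chow and 4452 to 15200 in FET-chow mice, and rescaled it was 12640 to 15830, 9946 to 15450 and 11260 to 13500, overlapping between all groups. Of the 11 hepatocyte markers, 10 had a negative difference in FET-chow against NC-chow, with a median of -1.37, 1 at an unadjusted p under 0.05 and none called by limma, and 5 of the 11 were lower in every FET-chow than in every NC-chow mouse (3 after rescaling), beside 17.1% and 11.5% of all genes. The 11 Kupffer cell and macrophage markers, all detected in at least 1 mouse, summed after rescaling to 32.1 to 37.4 in NC-chow, 26.4 to 53.6 in IVF-chow and 48.4 to 128.3 in FET-chow mice. The 10 stellate cell markers, all detected, summed to 18.3 to 26.3, 27.1 to 51.1 and 51.9 to 89.5. Both sums were higher in every FET-chow than in every NC-chow mouse on that scale. As deposited they overlapped, at 26.2 to 48.5 and 19.1 to 102.1 FPKM for macrophage and 19.9 to 35.8 and 31.6 to 71.2 for stellate markers in NC-chow and FET-chow mice. Single genes carried much of the highest sums, with Cd5l at 36.8 and Ecm1 at 64.8 FPKM in FET-chow mouse 2, whereas the stellate marker Des was at 1.85 ± 0.428 in NC-chow and 1.17 ± 1.60 FPKM in FET-chow mice (SD, n = 3 each). Of the markers tested, 5 of 8 macrophage and 1 of 4 stellate markers had a negative difference on the deposited scale, with none at an unadjusted p under 0.05 and none called by limma. Endothelial (9 of 9 detected, 13.5 to 16.1, 8.96 to 14.8 and 14.4 to 24.1) and cholangiocyte sums (6 of 7 detected, with Cftr at 0, 10.3 to 18.4, 5.91 to 8.10 and 6.02 to 17.6) overlapped between FET-chow and NC-chow mice. Lymphocyte markers (8 of 9 detected, with Gzma at 0) stayed between 0.289 and 2.46, and the 5 red blood cell genes, all detected, summed to 278.5 to 1040, 193.6 to 258.7 and 448.7 to 722.4. The part of these differences in marker sums, of the smaller FET-chow libraries and of the ribosomal RNA-like entries in the levels of the 9 genes was not tested.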

How the data were processed

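Libraries were made from TRIzol-extracted liver RNA and read on an Illumina Nova6000 instrument, and trimmed reads were aligned genome-wide. The submitters' processing notes name FastQC 0.11.5, STAR 2.5.3a, StringTie 1.3.1c and DESeq2 1.16.1. The genome build, annotation and strandedness are not given in the sources used here. The authors deposited FPKM values and no further scaling between mice is stated.

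Identifiers were matched to GENCODE vM21 (GRCm38) for 55154 of 55335 genes. Of these genes, 27411 were above 0 in at least 1 mouse. Differences were computed with limma 3.58.1 (R 4.3.3) from log2(FPKM + 1), in 1 model of 3 groups with a variance trend, over the 6755 genes whose mean reached 1 FPKM. Tests were two-sided, and a Benjamini-Hochberg adjusted p under 0.05 over all genes was called. Depth was estimated from steps of up to 8 fragments in low FPKM values (tolerance 2%), on which 33.1% to 41.3% of low values lay, beside 8.38% to 14.8% from the local density, and covers counting error only. Tested on simulated data of this design, the procedure found most large changes but very few of the size that Upp2 or Xdh showed, so a missing call says little about changes of that size.

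Named are the 9 genes, the called and the 3 most changed genes of each list, genes within 50 kb of Tymp and the 5 genes most correlated with it; any further gene was picked after its values had been seen. The members and lists were chosen with earlier results of these data known. Alternatives were a pseudocount of 0.1, no filter or a filter at 10 FPKM, median-ratio scaling, rescaling to nuclear protein-coding genes, quantile normalization, only the groups compared, a replicate block, leaving out each mouse, and leaving out NC-chow mice 5 and 6. Rescaled and leave-one-out counts of non-overlapping genes were added after seeing the data.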

Additional observations from a re-analysis of the deposited data

How the results depend on the processing

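None of the 7 tested genes besides Tymp was called under any alternative run. For single genes, signs turned where differences were small. In FET-chow against NC-chow, Cda was at 0.02 with rescaling, 0.19 with quantile normalization and 0.10 without NC-chow mice 5 and 6, and ran from -0.74 to 0.68 when each mouse was left out; Uox was at 0.41 without NC-chow mice 5 and 6. In IVF-chow against NC-chow, median-ratio scaling gave Dpyd 0.02, Dpys 0.20 and Uox 0.07, rescaling gave Dpys 0.13 and Cda -0.04, quantile normalization gave Dpyd 0.04, Dpys 0.24, Uox 0.01 and Cda -0.00, a pseudocount of 0.1 gave Cda -0.49, and Uox was at 0.75 without NC-chow mice 5 and 6. Leaving out each mouse, Cda ran from -0.47 to 0.78 and Uox from -0.95 to 0.40 there. In FET-chow against IVF-chow, rescaling gave Upb1 0.21 and Cda 0.06, quantile normalization gave Cda 0.19, and without each mouse Upb1 ran from -0.81 to 0.43, Cda from -0.89 to 0.68 and Uox from -1.09 to 0.26. The cause was not tested.

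Tymp was chosen for its fall, and its 3 groups did not overlap, with FET-chow mice listed at 0. Another pseudocount or leaving out mice could thus not turn its sign, and nothing is read from the sign staying negative. In FET-chow against NC-chow its difference was -7.49 with a pseudocount of 0.1 and -2.66 without NC-chow mice 5 and 6 (-5.06 to -3.67 without each mouse). It was -1.42 without NC-chow mice 5 and 6 in IVF-chow against NC-chow. In FET-chow against IVF-chow it was -3.62 with a pseudocount of 0.1. The count of genes lower in every mouse ran from 5 to 7 in FET-chow against NC-chow, from 2 to 5 in IVF-chow against NC-chow and from 2 to 5 in FET-chow against IVF-chow without each mouse, and was 1 with rescaling and 1 with median-ratio scaling in the last. The share of all genes was not worked out without each mouse, so nothing is read from the leave-one-out counts.

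The labels use the numbers 2, 3 and 4 in both IVF-chow and FET-chow. After the group means were removed, mice of the same number correlated at -0.13, 0.02 and -0.26, beside -0.14 to 0.29 for different numbers. With 3 mice a group this cannot show whether mice of the same number shared a litter, cage or batch. The labels do not say what the numbers mean. With a replicate block, 0 of the 7 genes and 2 of all genes were called by limma in FET-chow against IVF-chow, beside 6 without it, with 244 at an unadjusted p under 0.05.

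Over all genes, the 16 calls in FET-chow against NC-chow became 83 without NC-chow mouse 1, 57 without FET-chow mouse 2, 1 without FET-chow mouse 3, 6 without IVF-chow mouse 2, 9 without IVF-chow mouse 4, 26 without IVF-chow mouse 3 or with median-ratio scaling, 6 without NC-chow mice 5 and 6, 5 with a filter at 10 FPKM, and 0 with no filter or only the groups compared, where 2618 and 1031 genes had an unadjusted p under 0.05. The 4 calls of IVF-chow against NC-chow ran from 0 to 24 (24 without NC-chow mouse 1), and the 6 between FET-chow and IVF-chow from 0 to 10 (10 without IVF-chow mouse 2, NC-chow mouse 5 or NC-chow mouse 6). Depth limits the FET-chow livers most, where 3 fragments of Tymp come to 0.503 to 0.729 FPKM.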
